A study of Mus musculus with 4 samples.

Results

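The Clec3b Dpt fibroblasts of the mouse ovary were 656 of the 30523 cells that passed the limits on cell quality. They are stromal cells that make collagen and carry transcripts of Clec3b, which encodes the plasminogen-binding protein tetranectin, and of Dpt, which encodes the matrix protein dermatopontin. They were chosen cell by cell from counts of unique molecular identifiers (UMIs), tags that count each captured transcript once. A cell was taken when it had at least 1000 UMIs, at most 20% of them mitochondrial, and at least 1 UMI of 3 or more of Dcn, Lum, Col1a1, Col1a2, Pdgfra and Tcf21. It also had no UMI of Pecam1 (endothelium), Ptprc (leukocytes) or Fshr (granulosa cells), which together with the first conditions is called the stromal gate here. Finally it had at least 1 UMI of 3 or more of the 5 markers Clec3b, Igfbp3, Dpt, Col14a1 and Svep1. The UMIs of these 14 genes therefore chose the cells, and the levels of those genes are given as a description.

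The ovaries came from prepubertal mice of postnatal day 25, whose strain the labels do not give, in 4 groups. Control mice received PBS or saline. Doxorubicin mice received 2 weekly doses of doxorubicin at 3 mg/kg, doxorubicin+AMH mice received the same drug together with recombinant human anti-Müllerian hormone (AMH) at 0.75 mg/kg, and AMH mice received the hormone alone at 0.75 mg/kg. The tissue was taken 4 hours later than the second dose. Each group pooled 1 ovary apiece from 5 animals, which were digested with papain and collagenase A, and made into 1 droplet library of 3′ transcript ends. Since each group is 1 library, its values have no replicate check, no test between groups was possible and no p-value is given. Intervals are 95% intervals of counting error only.

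Adventitial fibroblasts, a label these cells bear out only in part, lie around vessels and in connective tissue sheaths. They lay down collagen, elastin and other matrix proteins and secrete growth factors, complement proteins and chemokines. Where the present cells lay in the ovary was not measured. Doxorubicin is an anthracycline that traps topoisomerase II on DNA and so causes double-strand breaks. Such breaks stabilise the transcription factor p53, whose targets arrest the cell cycle (Cdkn1a), feed back on p53 (Mdm2), promote cell death (Bax, Fas) or serve repair and metabolism. AMH is a TGF-beta family hormone of granulosa cells that binds the type 2 receptor Amhr2 and signals through type 1 receptors shared with BMPs. The series was set up to ask whether AMH alters what the drug does to ovarian cells.

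The results turn on p53 target genes, so the stretches upstream of 3 of the most responsive ones are shown, taken from RefSeq on build GRCm38.p6 and read 5′ to 3′ on the strand of the gene. Capitals mark the best match to the p53 response element, a motif of 20 letters. The match in Cdkn1a (chr17:29090729-29090975, + strand) and in Ccng1 (chr11:40755312-40755536, - strand) had 19 of 20 letters, and the match in Ckap2 (chr8:22185820-22186069, - strand) had 18. The last pair of lines gives only the matching site in Rps27l (chr9:66946296-66946315, + strand) and in Gtse1 (chr15:85859945-85859964, + strand), each with 19 of 20 letters.
Cdkn1a: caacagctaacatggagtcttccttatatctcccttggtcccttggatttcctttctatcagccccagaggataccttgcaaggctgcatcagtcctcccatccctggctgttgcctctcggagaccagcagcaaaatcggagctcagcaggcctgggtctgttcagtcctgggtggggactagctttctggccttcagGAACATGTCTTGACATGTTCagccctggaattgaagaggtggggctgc
Ccng1: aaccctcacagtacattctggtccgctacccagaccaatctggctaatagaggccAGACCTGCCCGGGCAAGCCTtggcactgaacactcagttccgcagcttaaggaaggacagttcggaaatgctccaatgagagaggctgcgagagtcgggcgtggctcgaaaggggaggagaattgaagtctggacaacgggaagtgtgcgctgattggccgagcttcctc
Ckap2: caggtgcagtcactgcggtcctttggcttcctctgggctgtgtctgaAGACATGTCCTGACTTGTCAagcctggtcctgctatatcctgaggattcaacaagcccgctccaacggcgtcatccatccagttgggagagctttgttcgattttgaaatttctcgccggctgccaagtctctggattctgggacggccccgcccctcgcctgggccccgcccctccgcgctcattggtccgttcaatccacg
Rps27l: GGGCTTGTTGAGACTTGTCC
Gtse1: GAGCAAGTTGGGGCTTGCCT

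The element was searched on both strands, with no spacer and at least 18 matching letters, in windows of 300 bases from 250 before to 50 after each RefSeq start. No other motif was searched. It was found in 262 of 32851 windows (0.798%) and in 254 of 27025 genes with a window (0.940%). Of the 32 listed p53 targets with a window, 5 held it (15.6%), the genes printed above. Of the 18 that passed the filter on mean level described below and were at least 2-fold higher in doxorubicin than in control, 4 held it (22.2%). Some of the 18, among them Ckap2, passed that filter only through their doxorubicin level. Gtse1, which also held the element, lay below the filter and was at least 2-fold higher without it. A match is a description of letters, not a shown binding site, and a gene without one may hold the element elsewhere.

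Control had 196 members, doxorubicin 174, doxorubicin+AMH 94 and AMH 192. They made up 2.28% of cells in control (1.98 to 2.62), 2.72% in doxorubicin (2.33 to 3.14), 1.35% in doxorubicin+AMH (1.09 to 1.64) and 2.25% in AMH (1.94 to 2.58), by exact Clopper-Pearson intervals. The doxorubicin+AMH share was the lowest and its interval did not overlap the others. Detection of a marker needs a UMI, so the rule was also applied after cells were thinned to 2000 UMIs. The shares were then 1.4999%, 1.23%, 0.907% and 1.07%. The doxorubicin+AMH share was again the lowest, but its interval (0.695 to 1.16) overlapped those of doxorubicin (0.967 to 1.54) and AMH (0.860 to 1.32). Thinning also acts on the genes that exclude a cell, so the part of depth alone was not tested. With at least 4 markers asked for, the doxorubicin+AMH interval (0.795 to 1.28) overlapped that of control (1.22 to 1.74).

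Where libraries are not named, 4 values in a row run from control through doxorubicin and doxorubicin+AMH to AMH. Median depth per member was 12114.5, 16059.5, 10446.5 and 11320.5 UMIs, and the members' UMIs summed to 2814884, 3274876, 1397054 and 2552522. The highest cell held 4.60%, 4.50%, 13.9% and 4.63% of these sums. The median mitochondrial share lay between 3.07% and 3.48%. No cell barcode was shared between libraries among the members. Levels are counts per 1000000 UMIs (CPM), scaled to the summed UMIs of the members of a library. Ratios are log2 of CPM with 5 added to each level, which understates the change of low genes. They are given for the 6588 genes whose mean level over the libraries reached 20 CPM, called the filter, and a gene is called higher or lower where its ratio reaches 2-fold. Between 0.182% and 2.11% of all genes were called in a given direction of a comparison, so 0 or 1 called gene in a list of up to 30 is near the background and is no result about that list.

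The rule markers set the cells apart from other stroma by construction. In GENCODE M21 on build GRCm38 they lie at chr9:123150946-123157432 (Clec3b), chr11:7206086-7213923 (Igfbp3), chr1:164796644-164824266 (Dpt), chr15:55307750-55520803 (Col14a1) and chr4:58042442-58206859 (Svep1). Dpt and Col14a1 overlap noncoding genes on the opposite strand, as do Pdgfra, Inhba and Brinp3, and whether the counting used strand is not given in the sources used here. Clec3b was at 570.2, 500.5, 518 and 439 CPM in the members, Dpt at 694, 602, 566 and 595 CPM and Col14a1 at 332, 273, 355 and 228 CPM. Igfbp3, which binds insulin-like growth factors, was at 432, 303, 499 and 591 CPM and Svep1, a large adhesive matrix protein, at 180.5, 100.2, 118 and 128 CPM. Their log2 ratios over the other 11019 cells past the stromal gate ran from 3.66 for Svep1 to 5.77 for Igfbp3, and none differed 2-fold between groups. In doxorubicin 48 members had exactly 3 markers, 66 had 4 and 60 had all 5, while 91 cells just outside the rule had 2. In control the same counts were 70, 61, 65 and 137, in doxorubicin+AMH 23, 39, 32 and 89, and in AMH 55, 68, 69 and 105. As a check of background RNA, none of the 155, 56, 77 and 114 cells with at least 3 Ptprc UMIs carried 3 of the markers, at a median of 8645 to 9309 UMIs.

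Outside the rule the members were rich in matrix and surface genes. Against the other cells past the stromal gate, 465 of 6588 genes (7.06%) were at least 2-fold higher and 118 (1.79%) at least 2-fold lower. Since the rule picked the cells, these counts describe them and are not a test. The highest ratios were those of Sntg1, a syntrophin (4.12), Ly6a, the Sca-1 surface antigen (4.01), Gsn, the actin-severing protein gelsolin (3.95), the adhesion protein gene Negr1 (3.904), Zfp804a (3.76) and the matrix gene Fbln2 (3.67). Col5a3 (3.62), complement C3 (3.51), elastin Eln (3.50), Gask1b (3.41), Spon2 (3.39) and Brinp3 (3.38) followed. Of 17 collagen genes that passed the filter 12 were at least 2-fold higher than in other stroma, and of 30 matrix glycoprotein and proteoglycan genes 13 were.

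The label adventitial was borne out only in part. Of 18 adventitial fibroblast genes that passed the filter 15 were at least 2-fold higher in the members than in the other stroma, among them Cd34 (2.87), Tnxb (3.10) and Efemp1 (2.98). Pi16, a defining marker of adventitial fibroblasts in other mouse organs, had 56.1, 27.8, 16.5 and 30.6 CPM and was seen in 17.3%, 13.8%, 13.8% and 12.5% of the members, against 1.30% to 2.58% of leukocytes. Dpp4, the other such marker, lay below the filter at 6.04, 3.66, 5.73 and 0.784 CPM. Col15a1, which marks parenchymal fibroblasts instead, was seen in 91.8%, 93.1%, 85.1% and 92.2% of the members. It was as frequent in members with a Pi16 UMI (94.1%, 95.8%, 84.6% and 91.7%) as in those without (91.4%, 92.7%, 85.2% and 92.3%). Of 11 listed genes of parenchymal-type ovarian stroma that passed the filter, 2 were at least 2-fold higher in the members than in the other stroma and 4 lower. Their median ratio was -0.42, against -0.09 for all genes, of which 7.06% were higher and 1.79% lower. The cells are therefore named here by their leading genes.

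Markers of other cell types were present in the members and their summed levels differed between the groups. The 6 smooth muscle markers summed to 562, 658, 1165 and 823 CPM, against 4019, 3157, 3907 and 3636 in the other stroma, and the 9 granulosa markers to 266, 265, 475 and 502 CPM, against 338, 390.3, 466 and 564. The 6 theca markers summed to 271, 545, 349 and 75.6 CPM, against 1747, 1569, 757 and 756 in the other stroma. The 9 surface epithelium markers summed to 152, 7.33, 18.6 and 59.2 CPM. With no filter 7 of them were at least 2-fold lower in doxorubicin / control, as were 510 of all 21502 genes. The 6 theca markers were all at least 2-fold higher in doxorubicin+AMH / AMH, counted in the same way, as were 249 of all 21502 genes. The 6 oviduct epithelium markers summed to 309, 4.27, 26.5 and 179 CPM, and the 4 erythroid markers to 15.6, 19.5, 12.9 and 1202 CPM. Summed levels of the pericyte markers were 52.9, 51.0, 91.6 and 32.1 CPM. Of the endothelial, macrophage, lymphocyte and oocyte marker lists no gene passed the filter. Removal of likely doublets, the cells with the highest doublet scores of each library, took away 23, 9, 13 and 18 members.

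Doxorubicin without AMH was accompanied by higher levels of most p53 targets in these fibroblasts. Over all 40 listed targets, with no filter, 25 had a ratio of at least 2-fold in doxorubicin / control and none of 2-fold the other way, with a median of 1.40. With no filter 213 of all 21502 genes were higher there and 510 lower. Of the 28 targets that passed the filter 20 were at least 2-fold higher and none lower. The filter is a mean over 4 libraries that include doxorubicin, and 9 of these 20 (Sesn2, Zmat3, Ckap2, Aen, Polk, Gdf15, Ak1, Dcxr and Cpt1c) passed it only through their doxorubicin level, so these had to be high there to be counted. With the filter on the other 3 libraries alone, chosen after the data were seen, 11 of 19 targets were at least 2-fold higher and none lower, with a median of 1.11 against -0.06 for all 6605 genes, of which 1.04% were higher (69) and 1.65% lower (109). With the filter on all 4 libraries 1.56% of all genes were higher (103 of 6588) and 1.24% lower (82), and the median ratio was 1.73 over the 28 targets and -0.05 over all genes. In doxorubicin+AMH against AMH, which shares no library with the first comparison, none of the 28 reached 2-fold in either direction, where 1.44% of all genes were higher (95) and 0.85% lower (56). With median-of-ratios scaling those counts were 82 and 76, and with at least 2 markers asked for 19 and 41. The median there was 0.27, against 0.08 for all genes. The list was drawn up with earlier results of these data known, so the direction is not independent evidence. The ratio stayed past 2-fold under all 12 alternative settings of cells, weights, scaling and pseudocount, here and below called the 12 settings, for 17 of the 20 targets, all but Apaf1, Cpt1c and Fas. The alternative filters are not among the 12, and 8 of the 17 are not tested at all with the filter that leaves out doxorubicin. In a sum over cells, fewer responding cells and less RNA per responding cell cannot be told apart, and the distribution over cells is given further on. Theca markers (545 CPM) and depth per cell (16059.5 UMIs) were also highest in doxorubicin, and the part of the theca markers in these ratios was not tested.

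Among the 14 arrest and feedback genes 9 reached 2-fold in doxorubicin / control with no filter, 7 of the 11 that passed it and 4 of the 8 that passed it without the doxorubicin library. Under the same filters 213 of 21502, 103 of 6588 and 69 of 6605 of all genes were higher. Cdkn1a (ENSMUSG00000023067, chr17:29090976-29100727), the inhibitor of cyclin-dependent kinases, was at 118 CPM (106 to 131) in control, 1327 (1288 to 1367) in doxorubicin, 254 (228 to 282) in doxorubicin+AMH and 136 (122 to 151) in AMH, by exact Poisson intervals. Only the doxorubicin library stood far apart, with doxorubicin+AMH next and above AMH. The ratio was 3.44 for doxorubicin / control, 0.88 for doxorubicin+AMH / AMH and 0.19 for AMH / control. Removal of likely doublets took the second ratio past 2-fold, to 1.29. Ccng1 (cyclin G1, ENSMUSG00000020326, chr11:40748552-40755311) was at 19.5 CPM (14.7 to 25.4) in control, 238 (221 to 255) in doxorubicin, 21.5 (14.5 to 30.7) in doxorubicin+AMH and 20.4 (15.2 to 26.7) in AMH. Its doxorubicin level exceeded the other libraries by a ratio of 3.31 over control, while the remaining intervals overlapped. It was seen in 42, 148, 21 and 43 members. Mdm2 (chr10:117688875-117710758), the ubiquitin ligase that degrades p53, was at 38.0, 278, 42.9 and 36.04 CPM and seen in 70, 135, 30 and 65 members. Its relative Mdm4, which inhibits p53, was at 57.2, 59.8, 55.1 and 56.4 CPM and did not differ 2-fold.

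The stress protein Sesn2 was at 5.33, 68.4, 8.59 and 7.84 CPM, the RNA-binding protein Zmat3 at 8.88, 65.0, 13.6 and 7.44 CPM and Trp53inp1, a p53-induced nuclear protein, at 29.1, 189, 35.1 and 25.5 CPM. Each was highest in doxorubicin, with ratios over control of 2.83, 2.34 and 2.51. Ckap2 (chr8:22168160-22185819), a spindle-associated protein listed here as a p53 target, was at 11.7 CPM (8.07 to 16.5) in control, 208 (193 to 224) in doxorubicin, 12.2 (7.09 to 19.5) in doxorubicin+AMH and 4.70 (2.43 to 8.21) in AMH. It was seen in 12, 113, 11 and 8 members, and it had the highest doxorubicin ratio of the list, 3.67. Of the 11 genes that passed the filter the 4 others stayed under 2-fold in doxorubicin / control, among them Mdm4. Btg2, an antiproliferative factor, had a ratio of 0.99 (608, 1208, 661 and 723 CPM), the polo-like kinase Plk2 0.92 (72.5, 141, 75.9 and 73.7 CPM) and Sesn1 -0.37 (50.1, 37.6, 45.1 and 56.0 CPM). Gtse1, whose start holds a matching element, and Psrc1 lay below the filter at 2.13, 17.7, 2.15 and 1.57 CPM and at 1.42, 11.9, 4.29 and 0.784 CPM, with ratios of 1.67 and 1.40. Trp53 itself was at 53.6, 50.4, 51.5 and 61.9 CPM and within 2-fold in all comparisons.

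Of 12 cell death genes 10 were at least 2-fold higher in doxorubicin / control with no filter, as were 213 of all 21502 genes. The 7 cell death genes that passed the filter, of which Aen did so only through doxorubicin, were each at least 2-fold higher. With the filter 1.56% of all genes were. Eda2r (chrX:97333840-97377216), a receptor of the tumour necrosis factor receptor family, was at 14.9 CPM (10.8 to 20.2) in control, 225 (209 to 242) in doxorubicin, 28.6 (20.5 to 39.0) in doxorubicin+AMH and 22.3 (16.9 to 28.9) in AMH. It was seen in 28 control and 137 doxorubicin members. Bax, which permeabilises the mitochondrial outer membrane, was at 62.2, 218, 75.2 and 62.7 CPM, with a ratio of 1.73 in doxorubicin / control against 0.24 in doxorubicin+AMH / AMH. Phlda3, a repressor of Akt, was at 60.0, 209, 73.0 and 49.0 CPM. Both had their doxorubicin level well above the 3 other libraries. Ei24, a protein of the endoplasmic reticulum, was at 35.5, 209, 45.1 and 30.6 CPM and Aen, an apoptosis-enhancing nuclease, at 7.46, 64.4, 12.9 and 7.05 CPM. The death receptor Fas was at 25.9, 59.8, 25.1 and 21.2 CPM and Apaf1, the scaffold that activates caspase 9, at 30.6, 71.8, 42.9 and 29.8 CPM. Fas and Apaf1 only just passed 2-fold, at 1.07 and 1.11. The BH3-only genes Pmaip1 (1.07, 24.7, 2.15 and 1.18 CPM) and Bbc3 (8.88, 33.9, 7.16 and 8.23 CPM) and the death receptor gene Tnfrsf10b (1.42, 20.5, 6.44 and 1.96 CPM) lay below the filter, each with its highest value in doxorubicin.

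Of 14 repair and metabolism targets 6 reached 2-fold in doxorubicin / control, and of these only Rps27l passed the filter without the doxorubicin library. All genes counted, 103 of 6588 were higher with the filter and 213 of 21502 with none. Gdf15 (chr8:70629393-70632456), a secreted stress factor of the TGF-beta family, was at 4.26 CPM (2.20 to 7.45) in control, 109 (97.7 to 121) in doxorubicin, 5.01 (2.01 to 10.3) in doxorubicin+AMH and 0.392 (0.00992 to 2.18) in AMH. It was seen in 5, 42, 5 and 1 members, so the high doxorubicin level came from a minority of the cells. Rps27l (chr9:66946086-66949516), a ribosomal protein related to Rps27, was at 299.8, 802, 371 and 261 CPM, and Polk, a translesion DNA polymerase, at 22.7, 67.2, 13.6 and 20.8 CPM. Their ratios over control were 1.41 and 1.38. The adenylate kinase gene Ak1 was at 11.4, 51.6, 12.2 and 8.62 CPM, Cpt1c at 20.2, 48.9, 17.9 and 17.2 CPM and the reductase gene Dcxr at 17.1, 107, 9.31 and 15.7 CPM, where 1 cell held 56.2% of the control UMIs of Dcxr. Rrm2b, Ercc5, Ephx1 and Pltp stayed under 2-fold, with ratios of -0.14, 0.57, 0.53 and -0.37.

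Genes of DNA damage sensing and of the cell cycle that passed the filter were near the background between doxorubicin and control. None of 8 damage-sensing genes and none of 8 cell cycle genes differed 2-fold in doxorubicin / control, where 1.56% of all genes were higher and 1.24% lower, and the medians were -0.13 and -0.01 against -0.05 for all genes. Top2a, the proliferation-linked topoisomerase II, is in both lists and was the only gene of either that passed the filter and differed elsewhere, at 53.6, 38.5, 85.9 and 26.2 CPM, with ratios of 1.54 for doxorubicin+AMH / AMH and 1.06 for doxorubicin+AMH / doxorubicin. After removal of likely doublets these were 1.42 and 0.11. Most cell cycle genes lay below the filter, and with no filter the picture differed. Of all 24 listed cell cycle genes 13 were at least 2-fold higher in doxorubicin+AMH than in AMH (median 1.07) and 9 than in doxorubicin (median 0.78), with none lower, while 1 was lower in doxorubicin / control and 4 in AMH / control. With no filter 249 of all 21502 genes were higher in the first of these comparisons and 258 in the second. Among the 13, and chosen after their values were seen, were Mki67 at 29.1, 16.5, 25.1 and 7.84 CPM, the mitotic kinase gene Cdk1 at 18.1, 10.4, 34.4 and 12.9 CPM and the survivin gene Birc5 at 24.9, 11.6, 30.8 and 7.44 CPM. These levels rested on few cells, since Cdk1 was seen in 11, 13, 14 and 29 members and 1 cell held 29.2% of its doxorubicin+AMH UMIs. The count of 13 in doxorubicin+AMH / AMH was 10 after removal of likely doublets and without each gene's highest cell, 4 in members chosen after thinning and 0 with at least 2 markers asked for. With the filter on the 3 libraries other than doxorubicin 4 of 11 cell cycle genes were higher there, as were 102 of all 6605 genes. Of all 20 listed damage-sensing genes 1 was lower in doxorubicin / control and 2 were higher in doxorubicin+AMH / AMH.

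Against doxorubicin alone, doxorubicin+AMH was at least 2-fold lower in 19 of the 28 p53 targets that passed the filter and higher in none. Of the 19, 9 passed it only through the doxorubicin library, the denominator here. With the filter on the other 3 libraries 10 of 19 targets were lower and none higher, with a median of -1.10, where 1.5% of all genes were lower and 1.57% higher. Over all genes, 2.11% were lower (139 of 6588) and 1.26% higher (83). The median ratio was -1.60 over the 28 and 0.06 over all genes. The lowest ratios were those of Ckap2 (-3.63), Gdf15 (-3.51) and Ccng1 (-3.20). The call held under all 12 settings for 16 of the 19, all but Cpt1c, Fas and Rps27l. Of the 20 targets called in doxorubicin / control only Apaf1 was not called here, at -0.68. This comparison shares the doxorubicin library with doxorubicin / control, so the 2 are not independent and a feature of that 1 library would appear in both. AMH / control left all 28 within 2-fold, with a median of -0.13, against -0.08 for all genes. There, 0.182% of all genes were higher (12) and 1.09% lower (72).

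High p53-target counts were seen in most doxorubicin members. With 2000 UMIs drawn from each cell, the 40 targets had a median of 14 UMIs per doxorubicin member, against 4 in doxorubicin+AMH and 3 in both control and AMH. The range from the 10th to the 90th percentile was 4 to 24 UMIs in doxorubicin, 1 to 7 in control, 2 to 9 in doxorubicin+AMH and 1 to 7.9 in AMH. Of 173 doxorubicin members drawn, 94 lay above 12 UMIs, the highest control value, as did 1 of 94 doxorubicin+AMH members and no AMH member. The doxorubicin members themselves varied widely, from 2 cells with no UMI of the list to 1 with 35. In the other cells past the stromal gate the doxorubicin median was 4 UMIs and 68 of 2241 cells lay above 12. Only this count was made at equal depth, since the members were chosen at full depth. The part of depth in that choice was not tested.

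**Figure D1:**
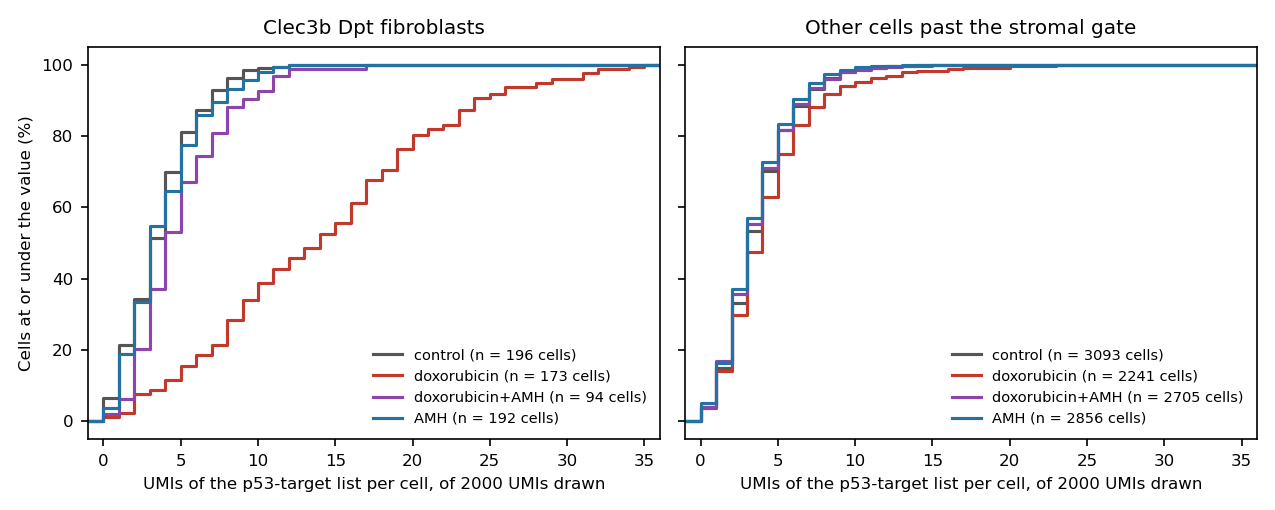
Cumulative percent of cells (vertical axis) by the number of UMIs of the 40 p53 targets in each cell (horizontal axis), after 2000 UMIs were drawn from every cell. The left panel shows Clec3b Dpt fibroblasts (196, 173, 94 and 192 cells in control, doxorubicin, doxorubicin+AMH and AMH) and the right panel the other cells past the stromal gate. The doxorubicin curve of the members is shifted right, to a median of 14 against 3 or 4 in the other libraries, and in the right panel its median is 4.

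The other stromal cells of the same ovaries, which share the libraries, had lower doxorubicin / control medians over the same 40 p53 targets, with no filter. Against 1.40 in the members (25 of 40 at least 2-fold higher), the median was 0.32 in the other cells past the stromal gate (4 of 40), 0.58 in stromal cells marked by Enpep and Lamc3 (8 of 40) and 0.02 in those marked by Lrat and Tmeff2 (0 of 40). The marked groups are subsets of those other cells, limited to cells with no UMI of any rule marker. The other cells as a whole had fewer than 3 rule markers. In doxorubicin Cdkn1a was at 92.8 CPM in stromal-gate cells with 0 rule markers and at 415 CPM with 2. With the filter on the libraries other than doxorubicin, which leaves different genes in each, the members had 1.11 over 19 genes and the others 0.15 over 16, 0.46 over 17 and -0.01 over 17. In doxorubicin+AMH / AMH the medians over all 40 were 0.22 in the members and 0.10, 0.18 and 0.05 in the others, and 1 target passed 2-fold in the Enpep and Lamc3 cells against 0 in the members. Cdkn1a in the other stroma was at 27.1, 123, 51.2 and 33.0 CPM, a doxorubicin / control ratio of 2.00, and in the Enpep and Lamc3 cells at 22.1, 165, 74.8 and 30.0 CPM, a ratio of 2.65. The Cdkn1a ratio in doxorubicin+AMH / AMH was 1.19 in the Enpep and Lamc3 cells, above the 0.88 of the members. All genes counted, 103 of 6588 were at least 2-fold higher in the members, 4 of 6740 in the other stroma, 13 of 6547 in Enpep and Lamc3 cells and 9 of 6811 in Lrat and Tmeff2 cells. The sums differ in depth, so these counts do not compare like with like, and no test between cell types was made.

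The Cdkn1a level was higher in the members than in stromal-gate cells with no rule marker in all 4 libraries. In doxorubicin and in AMH it rose with each further marker, also short of the rule. Marker number is the rule itself, so this is a description. In the doxorubicin library it was at 92.8, 147, 415, 1004, 1265 and 1656 CPM in stromal-gate cells with 0, 1, 2, 3, 4 and 5 markers. In control it was at 26.2, 27.4, 34.7, 92.9, 142 and 123 CPM. The cells just outside the rule (2 markers) thus lay between the cells with none and the members in doxorubicin. In doxorubicin+AMH the values were 49.0, 51.0, 92.7, 229, 345 and 197 CPM, and in AMH 28.9, 37.7, 68.3, 111, 134 and 156 CPM. The sum of the p53 list in doxorubicin was 2183, 2415, 3209, 5318, 6453 and 7261 CPM over the same steps, against 1796, 1853, 1708, 1854, 2101 and 1657 CPM in control. The median depth grew at each step in doxorubicin, from 10043 to 17261.5 UMIs, and its part there was not tested. In control it was 8220 UMIs with no marker, 13487 with 2, 10624 with 3 and 13618 with 5, and it was also lower with 3 markers than with 2 in doxorubicin+AMH (9627 against 11674) and AMH (10892 against 13112).

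**Figure D2:**
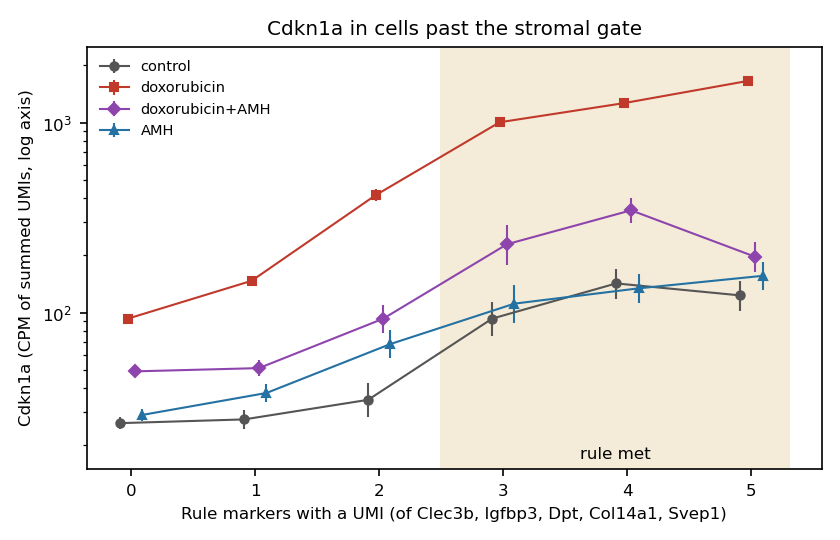
Cdkn1a level in CPM (log axis) in cells past the stromal gate, by the number of the 5 rule markers detected (horizontal axis); the shaded steps 3 to 5 are the Clec3b Dpt fibroblasts. Lines are the 4 libraries and bars are exact 95% Poisson intervals. Doxorubicin climbs from 92.8 CPM with no marker to 1656 CPM with 5, while control runs from 26.2 to 123 CPM.

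By the naming rule the highest doxorubicin / control ratios were mostly p53 targets, with 5 further genes among the top 12, picked for their ratio. All 5, like Ckap2, Gdf15 and Sesn2 (8 of the 12 in all), passed the filter only through their doxorubicin level, so they had to be high there to be named. Ano3, an anoctamin, had no UMI in control and 101, 7.16 and 0.392 CPM in doxorubicin, doxorubicin+AMH and AMH, from 56, 3 and 1 members. It overlaps Muc15 on the opposite strand, and Anks1b overlaps Gm47591 on its own strand, as Sesn2 does Gm12981. Nek3, a kinase gene that neighbours Ckap2 (chr8:22128283-22166435), was at 1.42, 117, 5.01 and 5.09 CPM, and Anks1b, a scaffold protein gene, at 2.13, 112, 5.73 and 0.392 CPM. Both were seen mainly in doxorubicin, with ratios of 4.25 and 4.03. The noncoding gene Gm42047 was at 13.1, 198, 32.9 and 9.79 CPM, with a ratio of 1.36 in doxorubicin+AMH / AMH, where Ano3 had 1.17. Fabp4, a fatty acid carrier, was at 4.26, 250.1, 7.16 and 8.23 CPM, but 1 cell held 79.7% of its doxorubicin UMIs and the ratio fell from 4.78 to 2.76 without the highest cells.

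Further genes were picked after their values were seen, for a high level in doxorubicin over many cells. Exoc4, a subunit of the exocyst that tethers secretory vesicles, was at 177, 895, 222 and 176 CPM, from 151, 170, 75 and 147 members. Its doxorubicin / control ratio was 2.31, where the other stroma had 163, 254, 169 and 145 CPM. The noncoding Snhg15 was at 15.3, 104, 17.9 and 16.8 CPM, the transcription factor gene Npas3 at 35.2, 164, 16.5 and 23.9 CPM and the giant cadherin gene Fat1 at 29.1, 127, 34.4 and 21.2 CPM. All 4 were highest in doxorubicin, through which alone Snhg15 passed the filter. Pvt1, a noncoding gene next to Myc, was at 80.3, 323, 85.9 and 37.6 CPM and was higher in both doxorubicin comparisons, by 1.94 and 1.09. The second of these was 0.92 without the highest cell of each library and -0.16 in members chosen after thinning.

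Both doxorubicin comparisons, which share no library, had 12 genes in common among those at least 2-fold higher, 11.7% of 103 and 12.6% of 95. They were Ano3, Cox6b2, Ddit4l, Dpp6, Gm42047, Hsd3b1, Il6, Isg15, Ly6a, Mgarp, Pank1 and Pvt1. Ly6a was at 68.6, 203, 116 and 32.1 CPM, with ratios of 1.498 and 1.70, the second 0.82 in members chosen after thinning. Among those at least 2-fold lower 11 were shared, 13.4% of 82 and 19.6% of 56. Ramp3, a partner of the calcitonin-like receptor, was at 41.6, 7.02, 3.58 and 43.1 CPM from 42, 17, 3 and 38 members, and the guidance factor Sema3a at 110.1, 26.0, 33.6 and 86.2 CPM. Nrxn3, a neurexin, was at 78.2, 34.2, 8.59 and 95.6 CPM. All 3 were lower in both drug libraries than in both libraries without the drug, though the doxorubicin / control ratio of Nrxn3 turned from -1.08 to 0.15 in members chosen after thinning. The others of the 11 were A2ml1, B830012L14Rik, Ccl11, Gabrb1, Ovgp1, Ppp2r2b, Shroom3 and Vav3.

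The 8 lowest doxorubicin / control ratios belonged to genes of ciliated and secretory epithelium and rested on few cells. Ovgp1, the oviduct glycoprotein, was at 198, 2.44, 2.86 and 151 CPM, with 94.96% of its control UMIs and 91.5% of its AMH UMIs in 1 cell each. Dnah12, a dynein of cilia, was at 131, 0.611, 12.9 and 1.57 CPM, with 62.2% of its control UMIs in 1 cell. Dnah5 was at 114, 0, 18.6 and 0.784, Rp1 at 82.8, 0, 12.2 and 0.784, Ccdc153 at 87.0, 0, 18.6 and 3.13, Tmem212 at 89.9, 0, 12.2 and 6.27, Cfap299 at 83.1, 0.611, 15.03 and 2.35 and A2ml1 at 75.0, 0.305, 5.01 and 16.5 CPM. All of the 8 but Ovgp1 passed the filter only through control. In each of these 8 genes 1 cell held between 50.6% and 94.96% of the control UMIs. Of the 82 genes lower in doxorubicin, 23 had at least 50% of their control UMIs in 1 cell and 37 were still lower after likely doublets were removed. Of the 103 higher genes 6 had at least 50% of their doxorubicin UMIs in 1 cell, and 96 were still higher without likely doublets.

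Chemokine and cytokine genes moved in both directions. Of 11 that passed the filter, 4 were at least 2-fold higher and 2 lower in doxorubicin / control, where 1.56% of all genes were higher and 1.24% lower. Ccl7 passed the filter only through doxorubicin, and over all 18 listed genes 6 were higher and 2 lower. With no filter 213 of all 21502 genes were higher and 510 lower. Ccl2, which attracts monocytes, was at 41.9, 153, 25.8 and 20.4 CPM, from 22, 30, 6 and 12 members. It was highest in doxorubicin, with a ratio of 1.75 over control and -2.36 for doxorubicin+AMH / doxorubicin. The related Ccl7 was at 25.6, 57.1, 12.2 and 20.8 CPM, and Cxcl10, which attracts T cells, at 117, 281, 112 and 121 CPM. Both were highest in doxorubicin as well, at smaller ratios of 1.02 and 1.23. The cytokine Il6 was at 44.4, 123, 43.7 and 16.5 CPM from 26, 37, 13 and 12 members, against 2.27, 2.67, 0.965 and 1.5003 CPM in the other stroma. Il6 was the only one higher in both doxorubicin comparisons, by 1.37 and 1.18, and it was lower in AMH / control (-1.20). Its calls outside doxorubicin / control did not hold throughout, at 0.87 in doxorubicin+AMH / AMH with at least 2 markers asked for and -0.49 in AMH / control after thinning. Of the 6 doxorubicin / control calls those of Ccl2 and Il6 held under all 12 settings. Those of Ccl7 (0.79 after removal of likely doublets), Cxcl10 (0.79 in members chosen after thinning), Ccl11 (-0.72) and Il33 did not.

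Ccl11, which attracts eosinophils, was at 27.7, 10.7, 16.5 and 51.3 CPM and lower in both doxorubicin comparisons (-1.06 and -1.39). The alarmin Il33 was at 68.6, 22.6, 59.4 and 27.0 CPM, lower in doxorubicin than in control but higher in doxorubicin+AMH than in AMH. Cxcl1, which attracts neutrophils, was at 257, 335, 172 and 73.3 CPM. Its lowest level was in AMH, a ratio of -1.74 to control. Cxcl12, which retains blood and immune cells in tissues, was at 357, 278, 286 and 308 CPM and within 2-fold throughout. Lif, an Il6-family cytokine below the filter, was at 1.78, 22.6, 3.58 and 1.57 CPM from 5, 29, 4 and 4 members. In doxorubicin+AMH 3 listed genes were higher than in AMH and 1 lower, and against doxorubicin 1 was higher and 4 lower. Of all genes 1.44% and 0.85% were so called in the first of these comparisons and 1.26% and 2.11% in the second.

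A minority of interferon response genes were higher in each of the doxorubicin comparisons. Of all 22 listed, with no filter, 5 were at least 2-fold higher in doxorubicin / control and 8 in doxorubicin+AMH / AMH, with none lower, and the 8 were 3 with at least 2 markers asked for. With no filter 213 and 249 of all 21502 genes were higher in these comparisons. The median ratio over the 12 genes that passed the filter, Ifi35 only through doxorubicin, was 0.37 in doxorubicin / control against 0.72 in doxorubicin+AMH / AMH, with 1 and 3 genes at least 2-fold higher, where 1.56% and 1.44% of all genes were. Only the Isg15 call of the second comparison held under all 12 settings. Isg15, a ubiquitin-like modifier induced by interferon, was at 32.3, 75.1, 53.7 and 9.79 CPM, with ratios of 1.10 and 1.99. Its AMH level was the lowest of the 4. Stat2 was at 26.3, 28.4, 41.5 and 16.8 CPM and Xaf1 at 23.4, 28.4, 27.2 and 10.2 CPM, both past 2-fold in doxorubicin+AMH / AMH only. Bst2 (tetherin) was at 254, 464, 324 and 224 CPM and under 2-fold. Ifit1 (5.68, 24.7, 26.5 and 2.35 CPM) and Ifit3 (9.59, 43.4, 10.7 and 5.09 CPM) lay below the filter. Complement C3 was at 679.6, 709.6, 852 and 531 CPM and within 2-fold throughout. Of the complement genes C4b passed 2-fold, in doxorubicin+AMH / AMH (1.12, or 0.93 with at least 2 markers asked for), at 36.9, 40.0015, 63.7 and 26.6 CPM.

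**Figure D3:**
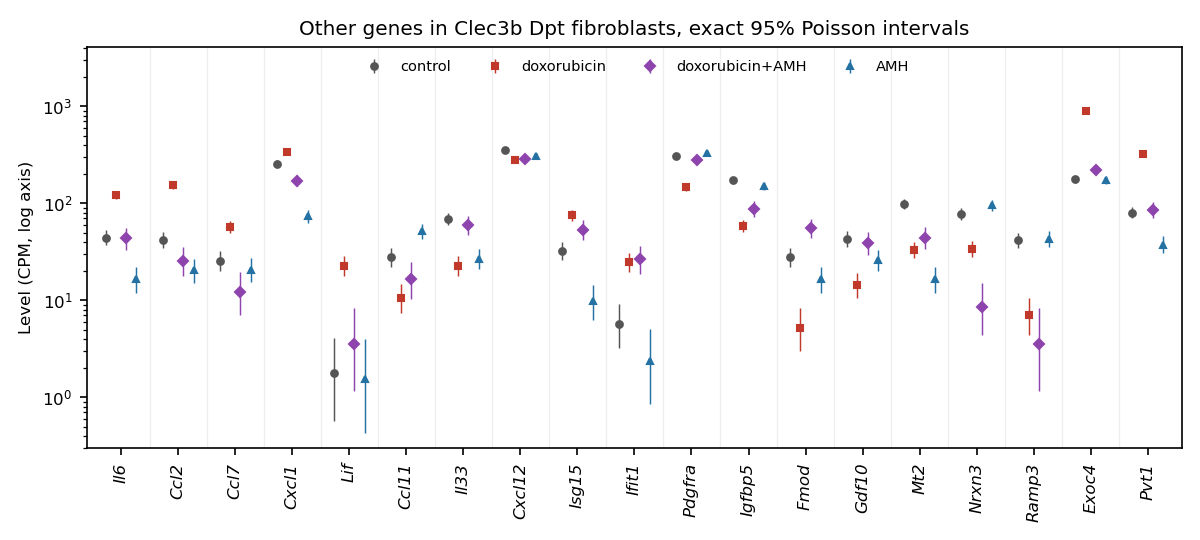
Levels of 19 genes outside the p53 list in Clec3b Dpt fibroblasts, in CPM on a log axis, with exact 95% Poisson intervals. Points are the 4 libraries, 1 per group. Ccl2, Il6 and Exoc4 are highest in doxorubicin, Nrxn3 and Ramp3 are lower in both drug libraries, and Pdgfra is lowest in doxorubicin.

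Collagen genes passed 2-fold about as rarely as all genes. Of 17 collagen genes none did in doxorubicin / control, where 1.56% of all genes were higher and 1.24% lower, and 1 did in doxorubicin+AMH / AMH, where 1.44% were higher and 0.85% lower. Their median was -0.22 in the former, against -0.05 for all genes. Col1a1 was at 4824, 4928, 3521 and 4613 CPM, Col1a2 at 5913, 5082, 4672 and 5713 CPM and Col3a1 at 5873, 4705, 4498 and 4945 CPM, the chains of the main fibrillar collagens. Each was lowest in doxorubicin+AMH, within 2-fold. The one gene past 2-fold was Col5a3, at 110.1, 71.8, 54.4 and 136 CPM, with a ratio of -1.24 in doxorubicin+AMH / AMH, or -0.97 after removal of likely doublets. Elastin (Eln) was at 549.9, 327, 227 and 388 CPM, decorin (Dcn, a rule gene) at 6721, 5569.98, 5588 and 6324 CPM and Sparc at 6069, 5859.8, 4430.04 and 5125 CPM. Elastin was below control in every other library, by ratios of -0.74 in doxorubicin and -0.50 in AMH. Among 30 glycoprotein and proteoglycan genes 1 passed 2-fold in doxorubicin / control and in doxorubicin+AMH / AMH, near the shares of all genes just given. It was fibromodulin (Fmod), which binds collagen fibrils, at 27.7, 5.19, 55.1 and 16.5 CPM from 29, 11, 22 and 14 members. It was lower in doxorubicin than in control (-1.68) and higher in doxorubicin+AMH than in AMH (1.49), and its ratio to doxorubicin was 2.56. With at least 2 markers asked for the first pair of ratios was -0.35 and 0.94.

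Of 17 matrix protease and inhibitor genes none passed 2-fold in doxorubicin / control, near the 1.56% higher and 1.24% lower of all genes. Mmp19 was at 61.8, 127, 47.2 and 44.3 CPM and came closest, at 0.98, and was lower in doxorubicin+AMH than in doxorubicin (-1.33, or -0.87 after thinning). Adamts12 was at 270.3, 229, 155 and 317 CPM, past 2-fold only in doxorubicin+AMH / AMH (-1.01, or -0.82 after removal of likely doublets). The inhibitor Timp1 was at 57.9, 48.9, 49.4 and 23.9 CPM, lower in AMH than in control (-1.12, or -0.90 without the highest cells).

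The receptor gene Pdgfra and the binding protein gene Igfbp5 were lower in doxorubicin than in control. Pdgfra, the PDGF receptor alpha and a gene of the stromal gate, was at 309 CPM (289 to 331) in control, 148 (136 to 162) in doxorubicin, 281 (254 to 311) in doxorubicin+AMH and 328 (306 to 351) in AMH. It was the 1 of 18 PDGF, FGF and VEGF genes past 2-fold in doxorubicin / control, at -1.04, and it was seen in 175, 120, 85 and 170 members. Since Pdgfra is 1 of 6 genes that could admit a cell, its level is a description. In members chosen after thinning its ratio was -0.74. The receptor Pdgfrb, which the rule did not use, was at 70.7, 38.8, 58.0 and 72.1 CPM (-0.79, under 2-fold). Igfbp5, an IGF-binding protein, was at 172, 58.3, 88.0 and 151 CPM, a ratio of -1.49, but 26.2% of its control UMIs came from 1 cell and the ratio was -1.18 after removal of likely doublets and -0.84 in members chosen after thinning. Igf1 was at 390.1, 286, 331 and 408 CPM and within 2-fold. Stc1, a secreted hormone of the stanniocalcin family, was at 40.9, 18.02, 17.9 and 40.7 CPM, with ratios of -0.99 in doxorubicin / control and -0.999 in doxorubicin+AMH / AMH, just under 2-fold.

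Of 15 BMP, activin and TGF-beta ligands and antagonists, 1 was lower in doxorubicin / control. This was Gdf10 at 43.0, 14.4, 38.7 and 25.9 CPM, with ratios of -1.31 to control (-0.90 with at least 2 markers asked for) and 1.17 in doxorubicin+AMH / doxorubicin (0.77 with a pseudocount of 20 CPM). Inhba, the activin A subunit, was at 10.3, 16.8, 30.8 and 51.3 CPM, higher in AMH than in control (1.88), where 1 cell held 36.6% of its AMH UMIs and the ratio was 0.86 after removal of likely doublets. Wnt4 was at 148, 238, 105 and 81.9 CPM and was lower in doxorubicin+AMH than in doxorubicin (-1.14), the 1 of 10 Wnt genes past 2-fold there, or -0.95 with at least 4 markers asked for.

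The members carried little of the AMH receptor, and no gene of its branch that passed the filter differed 2-fold. Amhr2 lay below the filter at 12.4, 6.11, 23.6 and 11.8 CPM, from 17, 12, 18 and 25 members, with a ratio of 1.37 in doxorubicin+AMH / doxorubicin, or 0.85 after removal of likely doublets. The type 1 receptor Bmpr1a was at 147, 141, 114 and 147 CPM, Acvr1 at 49.4, 48.6, 51.5 and 44.7 CPM and the BMP type 2 receptor Bmpr2 at 180.5, 134, 175 and 179.8 CPM. No receptor gene that passed the filter (5 of 7) differed 2-fold in any comparison. The 6 BMP and SMAD target genes had medians of 0.15 in AMH / control and 0.24 in doxorubicin+AMH / doxorubicin, with none past 2-fold. All genes had medians of -0.08 and 0.06 there, with 0.182% higher and 1.09% lower in the first and 1.26% and 2.11% in the second, so counts of 0 among 5 or 6 genes are near the background. Of the 2 below the filter Smad6 had 1.15 in the second of these comparisons (14.6, 9.16, 26.5 and 13.7 CPM). Id1 was at 68.9, 45.8, 52.97 and 72.5 CPM, Id3 at 425, 457, 449.5 and 373 CPM and Bambi, a decoy receptor, at 54.7, 60.8, 102 and 76.8 CPM. Against control, AMH had ratios of 0.07, -0.19 and 0.45 for these 3. The first median was -0.05 in members chosen after thinning. In the other stroma the list medians were -0.08 and 0.15.

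**Figure D4:**
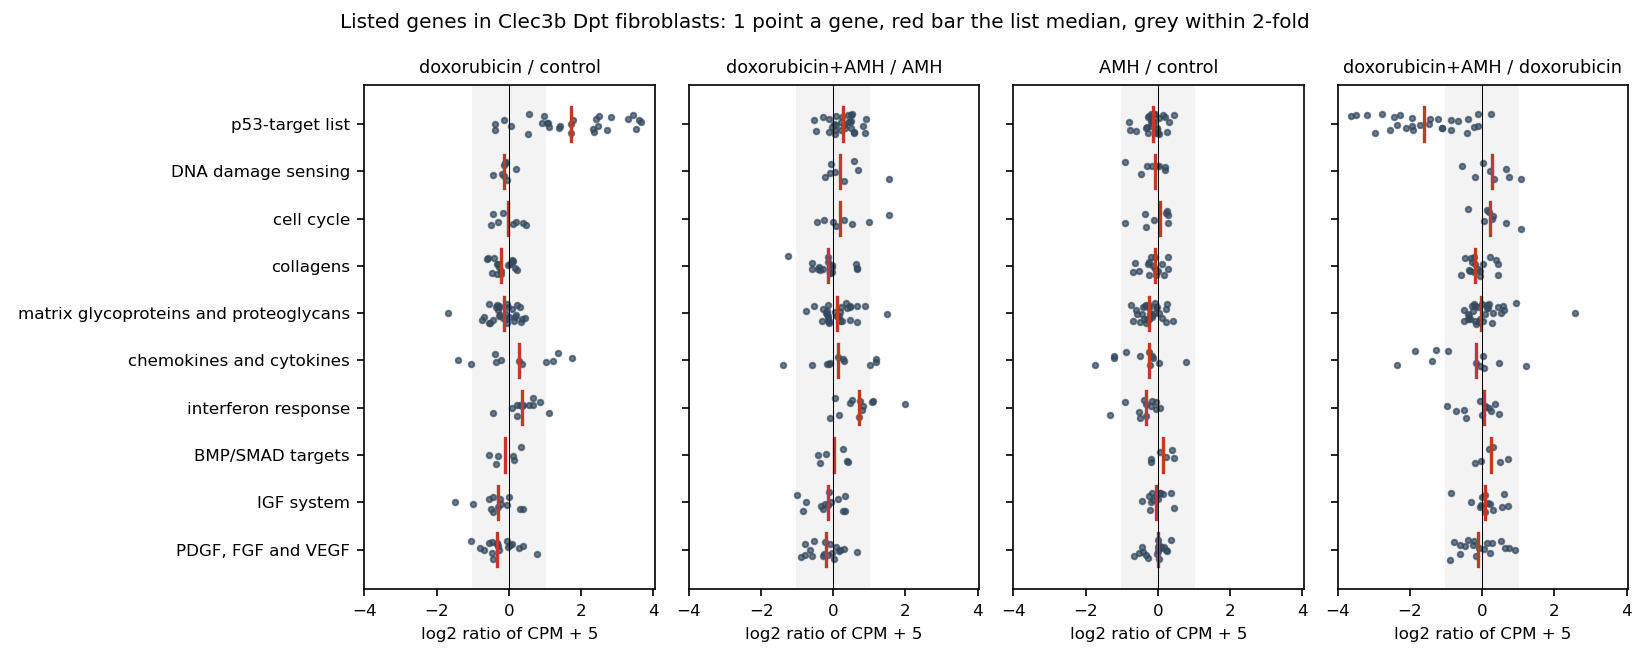
Log2 ratios of every listed gene that passed the filter (points) in 10 gene lists (rows) and 4 comparisons (panels), with the list median as a red bar and the range within 2-fold in grey. Over the 28 p53 targets together the median is 1.73 in doxorubicin / control. It is -1.60 where doxorubicin+AMH is set against doxorubicin. Of the 28, 9 passed the filter only through doxorubicin. With the filter on the other 3 libraries the medians over 19 targets were 1.11 and -1.10. By function the targets fall into cell cycle and feedback, cell death, and repair and metabolism. The medians of these parts were 2.51, 1.73 and 1.24 against -2.28, -1.48 and -1.17. With the filter on the other 3 libraries they were 1.75, 1.73 and 0.53 against -1.57, -1.47 and -0.39. The other lists lie mostly within 2-fold.

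AMH alone differed from control by 2-fold in 84 genes, and in 46 with each gene's highest cell left out. Of the 12 genes named for this comparison 4 of the 6 higher passed the filter only through AMH and 5 of the 6 lower only through control, and only Cyp11a1 kept its call under all 12 settings. The 3 haemoglobin genes headed the list, with Hbb-bs at 10.7, 12.8, 9.31 and 871 CPM, and 1 AMH cell held 94.0% of its UMIs. Without the highest cell of each library the Hbb-bs ratio was 2.00. Hba-a1 was at 0.711, 4.27, 1.43 and 168 CPM and its near copy Hba-a2 at 2.49, 1.53, 0.716 and 110.1 CPM. After them and Inhba came the chaperone gene Hspa1b at 97.3, 91.3, 116 and 271 CPM (1.43) and Tdrd5 at 14.2, 15.6, 44.4 and 43.5 CPM (1.34). Hspa1a, which encodes nearly the same protein as Hspa1b and can share its reads, was at 158, 165, 188 and 337 CPM. These 2 were the only ones of 22 dissociation stress and immediate early genes past 2-fold in AMH / control. Of all genes 0.182% were higher and 1.09% lower there. The list median was 0.09, against -0.08 for all genes, and neither call held under all 12 settings. The lowest ratios were those of the cilia genes Dnah12, Dnah5, Rp1, Dnah6 (78.5, 0.611, 9.31 and 1.18 CPM) and Cfap299, and of Cyp11a1, the first enzyme of steroid synthesis, at 79.9, 138, 64.4 and 2.35 CPM.

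In doxorubicin+AMH / AMH the highest ratios were those of Cyp11a1 (3.24), the linker histone gene Hist1h1b (2.54, 108, 19.5, 111 and 14.9 CPM), the heparan sulfate sulfotransferase gene Hs6st2 (2.53, 35.2, 36.03, 93.8 and 12.1 CPM), Dnah5, Isg15 and the lipid phosphatase gene Inpp4b. Inpp4b was at 17.1, 14.7, 72.3 and 15.7 CPM, from 23, 12, 32 and 18 members, and its highest cell held 9.90% of the doxorubicin+AMH UMIs. It passed the filter only through that library, as the haemoglobin genes and Gm20754 did only through AMH. Cyp11a1 is itself 1 of the 6 theca markers, whose sum was lowest in AMH at 75.6 CPM. Inpp4b, Isg15, Nrxn3, Gm20754 and Ovgp1 kept their calls under all 12 settings, and the other 7 genes named for this comparison did not. Below the haemoglobin genes and Ovgp1, the lowest were Nrxn3 (-2.89) and Gm20754 (-2.84, 26.3, 21.1, 1.43 and 41.1 CPM). Angptl1 at 129, 81.5, 26.5 and 125 CPM and Fam155a at 35.2, 55.3, 5.73 and 41.9 CPM, both chosen after their values were seen, and Brinp3 at 81.0, 61.7, 10.0 and 93.6 CPM were low in doxorubicin+AMH alone. Their ratios to AMH were -2.05, -2.13 and -2.72.

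In doxorubicin+AMH / doxorubicin the highest were Fmod, Hsd17b1, an estradiol-forming enzyme of granulosa cells (15.3, 6.41, 61.6 and 36.4 CPM), Hist1h1b, Dnah5, Ccdc153 and Cd24a, a surface antigen of epithelium (68.6, 4.89, 37.2 and 9.40 CPM). The lowest were Fabp4, Ckap2, Nek3, Gdf15, Anks1b and the carbonic anhydrase gene Car3 (17.4, 75.4, 3.58 and 2.74 CPM), all 6 of which passed the filter only through doxorubicin, as Fmod and Hsd17b1 did only through doxorubicin+AMH. Of these 12 the calls of Fmod, Hsd17b1, Ckap2, Nek3, Gdf15 and Anks1b held under all 12 settings. The AMH comparisons, which share no library with each other, had 2 higher genes in common (Hsd17b1 and Tdrd5, 16.7% of 12 and 2.41% of 83) and 6 lower ones (among them Car3, Cyp11a1, Glis3, Il6 and Pvt1, 8.33% of 72 and 4.32% of 139).

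Among stress and hormone receptor genes a few passed 2-fold. Of 17 antioxidant and metal response genes past the filter, 2 were higher and 1 lower in doxorubicin / control. Of all genes 1.56% and 1.24% were. In AMH / control 2 of the 17 were lower (1.09% of all genes). Relative to doxorubicin, doxorubicin+AMH was lower in 2 of the 17 and in 2 of 11 nuclear receptor genes (2.11% of all genes). Relative to AMH it was higher in 1 of the 17 and lower in 1 of the 11 (1.44% and 0.85% of all genes). Srxn1, which reactivates oxidised peroxiredoxins, was at 16.0, 57.4, 9.31 and 9.79 CPM, higher in doxorubicin (1.57), the level through which alone it passed the filter. Abcb1b, an efflux pump that exports doxorubicin, was at 37.3, 86.7, 40.1 and 26.2 CPM (1.12), with 27.8% of its doxorubicin UMIs in 1 cell and a ratio of 0.78 without the highest cells. The metallothionein gene Mt2 was at 98.1, 33.0, 44.4 and 16.5 CPM, below control in every other library. Ier3 was at 164, 79.4, 182 and 143 CPM, the 1 stress gene lower in doxorubicin (-1.01, or -0.94 after removal of likely doublets). The progesterone receptor gene Pgr was at 89.9, 170.1, 40.8 and 119 CPM, lower in doxorubicin+AMH than in AMH (-1.44, or -0.74 in members chosen after thinning) and than in doxorubicin (-1.93). The call against doxorubicin did not hold under all 12 settings either. The oestrogen receptor gene Esr1 (360.2, 264, 218 and 355 CPM) stayed within 2-fold. Hoxa5 was at 39.1, 18.9, 10.0 and 25.9 CPM, lower in doxorubicin+AMH than in AMH (-1.04, or -0.78 after removal of likely doublets).

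The remaining listed genes past 2-fold in a comparison each lost the call under at least 1 alternative. The hyaluronan synthase gene Has1 was at 89.9, 102, 60.8 and 33.3 CPM, with -1.31 in AMH / control (-0.84 after thinning), and the metallothionein gene Mt1 was at 537, 312, 487 and 265 CPM, just past 2-fold lower in the same comparison (-0.43 without likely doublets). The cytokine-signalling suppressor Socs3 was at 147, 136, 286 and 151 CPM, with 1.05 in doxorubicin+AMH / doxorubicin (0.66 with at least 2 markers). The retinoic acid receptor gene Rarb was at 29.5, 38.5, 14.3 and 23.9 CPM, with -1.17 there (-0.86 without likely doublets). None of these 4 was past 2-fold in doxorubicin / control.

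The others were markers of neighbouring cell types. Inha, the inhibin alpha subunit of granulosa cells, was at 135, 104, 282 and 272 CPM, with 1.40 in doxorubicin+AMH / doxorubicin (0.69 with at least 2 markers). The smooth muscle genes Myh11 and Acta2 were at 34.1, 99.2, 105 and 87.4 and at 196, 232, 560.5 and 379 CPM. Myh11 had 1.41 in doxorubicin / control and 1.24 in AMH / control, which turned to -1.499 and -1.92 in members chosen after thinning, and Acta2 had 1.26 in doxorubicin+AMH / doxorubicin, or -0.12 without likely doublets. The following 3 steroid synthesis genes lost their calls once likely doublets were removed. Cyp17a1 was at 50.4, 33.9, 15.03 and 0.784 CPM, with 1.79 in doxorubicin+AMH / AMH and -3.26 in AMH / control, or 0.77 and -0.82 without likely doublets. Star, which carries cholesterol into mitochondria, was at 32.0, 21.99, 46.5 and 17.6 CPM, with 1.19 and then 0.53 in the first of these. Hsd3b1 was at 101, 319, 181 and 52.1 CPM, and its ratios of 1.62 and 1.70 in the doxorubicin comparisons were -0.50 and -0.32 without likely doublets. Among steroid synthesis genes Cyp11a1, given above, kept its AMH / control call. Of the genes that mark other stroma, Enpep was at 51.2, 27.8, 85.2 and 44.7 CPM, with 1.46 in doxorubicin+AMH / doxorubicin (0.76 with at least 4 markers), and Tmeff2 at 71.1, 92.8, 40.1 and 81.9 CPM, with -1.12 (-0.78 with cells weighted equally).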

How the data were processed

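Pooled ovaries (5 animals a group) were dissociated and 10000 cells a group went into Chromium 3′ libraries from 10x Genomics, per the labels' protocols. The deposited values are raw UMI counts of each gene in each barcode; the software named per the file headers is Cell Ranger 7.0.0. The submitters' processing notes name build mm10, R 4.2.0 and Seurat 4.1.0, and whether intronic reads were counted is not given in the sources used here. The 4 matrices held 33639 cells, 32285 genes and 138647495 to 178279122 UMIs per library.

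Members were selected by the rule in the text, with Python 3.11.15, numpy 2.4.6, scipy 1.17.1 and pandas 2.3.3, and figures were drawn with matplotlib 3.10.9. The members and gene lists were chosen with earlier results of these data known. UMIs were summed over the members of a library and expressed as CPM, and log2 ratios used a pseudocount of 5 CPM and only genes whose mean over the libraries reached 20 CPM. Entries that repeat a symbol already listed (40) were summed with it. Levels have exact Poisson and shares exact Clopper-Pearson 95% intervals. The calculation was tested on simulated counts. Likely doublets, by the Scrublet scores of scanpy 1.11.5, were left in. Removal of the highest scores, at 0.8% per 1000 cells, was an alternative. The other alternatives were limits of 500 UMIs and 10% mitochondrial UMIs, 4 or 2 markers, the rule on cells thinned to 2000 UMIs, other scaling, equal weight per cell, pseudocounts of 1 and 20 CPM and filters of 0 and 50 CPM. Leaving out each gene's highest cell, or members above 50000 UMIs, and a filter of 20 CPM without the doxorubicin library were added after the data were seen.

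Genes were named by rule: the 12 highest and 8 lowest by doxorubicin / control, the 6 highest and 6 lowest by each other comparison, the 14 genes of the selection rule, the 12 highest over other stroma, and in each list the genes past 2-fold or otherwise those with the highest mean CPM. Exceptions are marked in the text. Gene positions are from GENCODE M21 (32235 of 32285 gene IDs matched) and promoter windows from RefSeq on GRCm38.p6, the same build as mm10.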

Additional observations from a re-analysis of the deposited data

Results flagged for a closer look

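In 13 genes the ratios of comparisons that share no library were past 2-fold in opposite directions. The differences were not tested, since each group has 1 library, and ratios against a library at 0 UMIs depend on the pseudocount. In doxorubicin / control against doxorubicin+AMH / AMH, the cilia genes had ratios of -4.60 and 1.45 for Dnah12 (a difference of 6.05), -4.58 and 2.03 for Dnah5 (6.61), -4.20 and 1.54 for Ccdc153 (5.74), -4.13 and 1.57 for Rp1 (5.70), -3.97 and 1.45 for Cfap299 (5.42) and -3.90 and 1.21 for Dnah6 (5.11). The epithelial surface gene Cd24a had -2.90 and 1.55 (4.45) and the linker histone gene Hist1h1b -2.20 and 2.54 (4.75). Without the highest cell of each library the second ratio was 0.42 for Dnah12, -0.12 for Dnah5 and -0.05 for Cd24a.

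In the same pair of comparisons Fmod had ratios of -1.68 and 1.49 (3.17), the metallothionein gene Mt2 -1.44 and 1.20 (2.64) and the alarmin gene Il33 -1.41 and 1.01 (2.42). These 3 were seen in more cells than the cilia genes, Fmod in 29, 11, 22 and 14 members, Mt2 in 41, 19, 19 and 16 and Il33 in 51, 29, 27 and 37. With at least 2 of the 5 markers asked for, the ratios were under 2-fold in both comparisons, at -0.35 and 0.94 for Fmod, -0.93 and 0.71 for Mt2 and -0.74 and 0.58 for Il33.

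In AMH / control against doxorubicin+AMH / doxorubicin, the difference is arithmetically the same, and the ratios were -4.38 and 1.67 for Dnah12 (6.05), -4.37 and 2.24 for Dnah5 (6.61), -3.50 and 2.24 for Ccdc153 (5.74), -3.92 and 1.78 for Rp1 (5.70), -3.58 and 1.84 for Cfap299 (5.42) and -3.76 and 1.35 for Dnah6 (5.11). Hist1h1b had -2.51 and 2.24 (4.75), Cd24a -2.35 and 2.09 (4.45) and Il33 -1.20 and 1.22 (2.42). The cilia gene Tmem212, with -3.07 and 1.78 (4.85), and the sulfotransferase gene Hs6st2, with -1.23 and 1.27 (2.496), were past 2-fold both ways in this pair alone.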

How the results depend on the processing

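No paired analysis was possible because each group has 1 library. Over the alternatives run, the p53-target median lay between 1.11 and 2.07 in doxorubicin / control, where 1.11 came from the filter without the doxorubicin library, which gave -1.10 in doxorubicin+AMH / doxorubicin. The BMP/SMAD median stayed under 2-fold but changed sign in 3 comparisons, with ranges of -0.05 to 0.23 in AMH / control, -0.41 to 0.12 in doxorubicin / control and -0.17 to 0.36 in doxorubicin+AMH / AMH. The shares of cells in control, doxorubicin, doxorubicin+AMH and AMH became 1.47%, 1.97%, 1.02% and 1.603% with 4 markers asked for, 3.88%, 4.14%, 2.62% and 3.48% with 2, 1.4999%, 1.23%, 0.907% and 1.07% after thinning, and 5.89%, 7.09%, 3.33% and 6.24% of stromal-gate cells. For Cdkn1a, 2 markers gave 3.62 for doxorubicin / control and 0.43 for AMH / control, thinning gave 0.58 for AMH / control, and removal of likely doublets gave 1.29 for doxorubicin+AMH / AMH and -2.03 for doxorubicin+AMH / doxorubicin.

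The number of genes past 2-fold was 185 in doxorubicin / control, 151 in doxorubicin+AMH / AMH, 84 in AMH / control and 222 in doxorubicin+AMH / doxorubicin. In this order it became 99, 60, 34 and 112 with 2 markers, 108, 59, 47 and 95 with a pseudocount of 20 CPM, 723, 393, 462 and 540 with no filter, and 62, 61, 27 and 87 with a filter of 50 CPM. The AMH / control count was 134 with 4 markers, 43 with each cell weighted equally and 46 without each gene's highest cell. Thinning gave 357 for doxorubicin+AMH / doxorubicin. Median-of-ratios scaling moved the share of higher genes in doxorubicin+AMH / AMH from 62.9% to 51.9%, and with 2 markers it was 31.7% (19 higher and 41 lower). In doxorubicin / control, where 103 were higher and 82 lower, the order also turned with no filter (213 higher and 510 lower, 29.5% higher) and with the filter that leaves out doxorubicin (69 and 109). In doxorubicin+AMH / doxorubicin that filter gave 104 higher and 99 lower, against 83 and 139.

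Of 660 alternative values of 55 named-gene ratios 13 changed sign. Thinning turned Car3 to 0.65 and Fabp4 to 0.28 in doxorubicin+AMH / doxorubicin, and Cfap299 to 0.19 in AMH / control. Without likely doublets, AMH / control was 0.23 for Dnah6 and 0.12 for Rp1. Without members above 50000 UMIs it was 0.22 for Dnah6 and 0.015 for Dnah5. In doxorubicin+AMH / AMH, Dnah5 was -0.25 without likely doublets, -1.22 with 2 markers, -0.12 without its highest cell and -0.22 without members above 50000 UMIs. With 4 markers Hbb-bs was -0.21 in AMH / control and 0.39 in doxorubicin+AMH / AMH. The cause was not tested for these changes, beyond fewer cells or genes being used. Precision is limited by the 94 doxorubicin+AMH members and the single library per group, and no spread between animals was measured.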
